A study of Homo sapiens with 32 samples.

Results

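The genes described here encode the general transcription factors, the proteins that place an RNA polymerase at a start site, and the small nuclear RNA activating protein complex (SNAPc). They were taken by name: protein-coding genes of GENCODE 44 on chromosomes 1 to 22 and X whose symbol is TAF with a digit or begins with GTF2, GTF3 or SNAPC, together with TBP, BRF1, BRF2 and BDP1. This gave 71 of 19970 genes. The rule uses names and no measured value, but it was set with earlier results of these data known. For each gene, peak summits of 4 transcription factors within 500 bp of its annotated 5′ end were collected.

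The summits came from chromatin immunoprecipitation and sequencing (ChIP-seq), which recovers and sequences the DNA to which a protein is crosslinked. The cells were HEK293T, an established human embryonic kidney line, in the single clone HEK_CloneZD29, in which ZNF143 carries a dTAG degron and an HA epitope, so that all groups, the untreated ones too, hold tagged ZNF143. Cells were left untreated or given 50 nM dTAGV-1, a compound that sends the tagged protein for destruction, for 30 min, and the 32 samples made 10 groups: 4 untreated and 4 treated samples for each of SP1, NRF1 and YY1, and 2 untreated and 2 treated samples for each of ZNF143 (through HA) and a mock precipitation. The growth protocol gives the degron line for the NRF1 and YY1 samples as well, although their sample characteristics do not repeat the tag.

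The deposited values were 4 summit lists, 1 per factor, with no value per sample. On the chromosomes used the ZNF143 list held 16165 summits, the SP1 list 126181, the NRF1 list 39180 and the YY1 list 106578. The labels assign the lists of SP1 and ZNF143 to untreated and treated samples together. The lists therefore have no replicate error, treatment was not compared, and the read depth behind each summit is unknown. Each summit has a score, a −log10 significance value written by the authors' peak caller, which was used only to rank summits within 1 list. Its place is given as a top percentage, where a small percentage means a strong summit.

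RNA polymerases cannot find promoters alone. TFIID, built of the TATA-binding protein TBP and its associated factors (TAFs), marks promoters of RNA polymerase II, where TFIIA, TFIIB, TFIIE, TFIIF and TFIIH complete the machinery, while SL1 serves RNA polymerase I, and TFIIIA, TFIIIB and TFIIIC serve RNA polymerase III. SNAPc recognises the proximal element of small nuclear RNA genes, at which ZNF143 is a known activator, whereas SP1, NRF1 and YY1 are widespread activators of promoters rich in CG dinucleotides.

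Sequences at some of the strong ZNF143 summits are shown first. ZNF143 is known to recognise a long element, searched for here as its consensus core of 10 bases and a flank, ACTACAA. The 2 middle bases of the core were left free and never counted as mismatches. A copy of the core is shown in capitals for TAF11 further on. The core and the flank were searched on both strands with 0 mismatches, and they do not overlap each other. The flank lay within 50 bp of the highest ZNF143 summit in 4 of the 38 members with a ZNF143 summit (10.5%, Wilson 95% interval 4.17 to 24.1), beside 6.26% over all genes with such a summit. These 4 members are SNAPC3 (chr9:15422810-15422839, plus strand), TAF8 (chr6:42050492-42050521, plus strand), TAF6 (chr7:100120090-100120119, minus strand) and GTF2H4 (chr6:30908070-30908099, minus strand), all in hg38. The SNAPC3 and TAF8 summits lay in the untranslated region of their own gene, the TAF6 summit in that of the neighbouring CNPY4, and the GTF2H4 summit between genes. Their reference sequence is given 5′ to 3′ from the first base of the flank, with the flank in capitals.
SNAPC3: ACTACAActtccatcacgctctgcgaggcc
TAF8: ACTACAAgtcccatcgcgccccgcgctcgc
TAF6: ACTACAAttcccacaatccattggcgggcg
GTF2H4: ACTACAAatcccgaaaggcaccgtggggaa

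The 4 scores were 15974, 4497, 3729 and 3630.2 in the order of these sequences. The other 34 members with a ZNF143 summit had scores from 2.10 to 5255, with a median of 18.5. GTF2E1 (5255) and TAF12 (4617), which came next after SNAPC3, had neither the exact flank nor the exact core near their summits. At GTF2E1 the flank with its last base changed lay near the summit on the minus strand. The closest form of the core, with 3 mismatches, followed it there after 2 bases. How often such inexact flanks occur was not counted. Over all genes the same letters went with a median score of 6773 in 396 genes, against 19.9 in the 5927 genes without them. In the 4 members the 10 bases that follow the flank after a gap of 2 bases differed from the core at 1 position in TAF6 and at 2 positions in each of SNAPC3, TAF8 and GTF2H4. This spacing was searched after the sequences had been seen. At most 2 mismatches were found there in 270 of the 396 genes (68.2%, 63.4 to 72.6), against 10 of 832 genes (1.20%, 0.654 to 2.20) that had the flank but no ZNF143 summit in their window.

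The exact core was found within 50 bp of the highest summit in 0 of 38 members, a share with an upper 95% limit of 9.18%, beside 4.43% over all genes. With 1 mismatch allowed it was found in 5 (13.2%, beside 20.3% over all genes), TAF6, GTF2H4, GTF3C2, BDP1 and TAF1D. Anywhere in the 1001-bp window the exact core occurred in 2 of 71 members (2.82%, beside 5.04% over all genes), SNAPC4 and TAF11. The TAF11 copy (chr6:34889089-34889118, minus strand, hg38) lay 89 bp downstream of the 5′ end, and the nearest ZNF143 summit was 96955 bp from it. The GTF3C2 copy with 1 mismatch (chr2:27356907-27356936, plus strand) was centred 41 bp from a summit scored 2607, within the 50 bp searched. They are set together because the exact letters had no summit near them and the inexact ones did. How often copies with 1 mismatch lie in windows without a summit was not counted. The capitals mark the core or its closest form.
TAF11: cttgtgggccCCCATTATGCaggtggaaag
GTF3C2: gactctgtatTCCATAATGCagcgcggcca

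NRF1 is known for a palindromic consensus of 10 bases, searched for here with the base before its T left free. It was searched on both strands with 0 mismatches and lay within 50 bp of the highest NRF1 summit in 11 of 47 members (23.4%, 13.6 to 37.2), beside 17.5% over all genes with an NRF1 summit. The 4 copies shown belong to the members with the highest NRF1 scores among those with the letters that encode a factor of RNA polymerase III (GTF3A, chr13:27424530-27424559, and GTF3C1, chr16:27549907-27549936, both plus strand), RNA polymerase II (GTF2A1, chr14:81221031-81221060, minus strand) or RNA polymerase I (TAF1B, chr2:9843404-9843433, minus strand). Capitals mark the letters searched.
GTF3A: gggcctcctgGCGCATGCGCgatctcccgg
GTF3C1: ggcgcccgggGCGCATGCGCaacgcaccgc
GTF2A1: ccgccccggcGCGCCTGCGCacgcggctct
TAF1B: aggattccgtGCGCCTGCGCggcagggaaa

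The 11 members with these letters had NRF1 scores from 409 to 12498, with a median of 6160, and the 36 without them from 2.25 to 3183, with a median of 36.1. The ranges overlapped between 409 and 3183. Over all genes the medians were 4914 with the letters and 27.2 without.

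YY1 is known to recognise a short element searched here, on both strands, as AANATGGCG. It lay within 50 bp of the highest YY1 summit in 6 of 54 members (11.1%, 5.19 to 22.2), beside 6.56% over all genes with a YY1 summit. The 4 shown set copies at a start codon beside copies that are not. They are GTF3C6 (chr6:110958702-110958731), TAF5 (chr10:103367977-103368006) and TAF3 (chr10:7818516-7818545), on the plus strand, and GTF2B (chr1:88891483-88891512), on the minus strand. All 4 copies read in the direction of their gene. In TAF5 and GTF2B the ATG inside the letters is the annotated start codon, and in GTF3C6 and TAF3 it is not.
GTF3C6: gcccgtactcAAGATGGCGgctccgggcgg
TAF5: gctcagccgcAAGATGGCGgcgctggcgga
TAF3: gagcgagtccAAAATGGCGgctctcaggct
GTF2B: agtcgccgtgAAGATGGCGtctaccagccg

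The 6 members with the YY1 letters, which also include TAF6 and GTF3C2, had scores from 924 to 5629, with a median of 3474. The 48 without them ranged from 6.91 to 10608, with a median of 258, so the ranges overlapped and the highest score of all fell at a member without the letters, GTF2A1. The SP1 element GGGCGG, also searched on both strands, was found near the highest SP1 summit in 14 of 54 members (25.9%, 16.1 to 38.9), below the 43.4% of all genes with an SP1 summit. Anywhere in the window, GGGCGG stood in 78.9% of the 71 members (68.0 to 86.8), an interval that covers the 72.0% of all genes. The NRF1 letters stood in 16.9% of the members' windows (9.94 to 27.3) and 10.2% of all windows. The YY1 letters stood in 16.9% (9.94 to 27.3) and 7.54%, and the ZNF143 flank in 7.04% (3.05 to 15.4) and 8.01%.

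**Figure D1:**
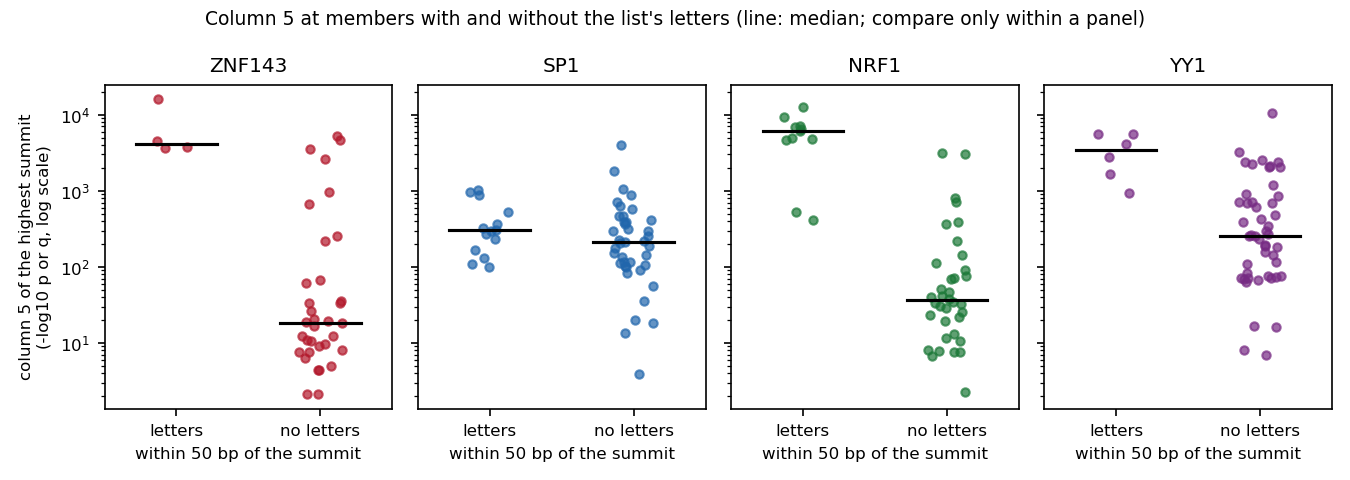
Score (column 5 of its list) of the highest summit (log axis) of each member with a summit in the ZNF143, SP1, NRF1 or YY1 list, split by whether the searched letters lie within 50 bp of it; each point is 1 member and the bar is the median. The 4 ZNF143 summits with the flank all lie at or above 3630.2, while the SP1 groups overlap over most of their range.

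Of the 71 members, 38 had ZNF143 within 500 bp of the 5′ end (53.5%, Wilson 95% interval 42.0 to 64.6), beside 31.7% of all 19970 genes. The counts for the other factors were 54 for SP1 (76.1%, 65.0 to 84.5; 59.1% of all genes), 47 for NRF1 (66.2%, 54.6 to 76.1; 48.3%) and 54 for YY1 (76.1%, 65.0 to 84.5; 57.8%). All 4 factors were present at 35 members (49.3%, 38.0 to 60.7), beside 28.1% of all genes. For each of these 5 counts the share of all genes lay below the members' interval, which covers counting error only. With summits counted near the 5′ end of any annotated transcript, it lay inside the interval for SP1 (77.5% of members, 66.5 to 85.6, beside 68.9%), NRF1 (67.6%, 56.1 to 77.3, beside 57.6%) and YY1 (76.1%, 65.0 to 84.5, beside 67.5%). Among summits in the upper 50% of each list, ZNF143 remained at 32.4% of the members, beside 19.4% of all genes. All genes include 7439 with none of the 4 factors. Among genes with at least 1 factor, ZNF143 was at 38 of 56 members and 6323 of 12531 genes. SP1 was at 54 and 11807 of these, NRF1 at 47 and 9643, YY1 at 54 and 11546, and all 4 at 35 and 5620. Members include near-copies and are not independent of each other, so these shares are descriptions of this list.

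Nothing was found at 15 members (21.1%, 13.2 to 32.0), beside 37.3% of all genes. They were TAF1L, GTF2A1L and the 13 members of the TAF11L family, TAF11L2 to TAF11L14. TAF1L is an intronless copy of TAF1 and GTF2A1L a relative of TFIIA, both known from germ cells. The TAF11L genes are a cluster of near-copies on chromosome 5. Their windows consisted to between 23.1% and 100% of 31-base words that occur again in the assembly, and their nearest summits were at least 71905 bp away. Reads from repeated stretches cannot be placed on 1 copy, while the windows of TAF11L14, TAF11L11, TAF11L12 and TAF11L2 were repeated to under 50% (23.1%, 35.7%, 40.2% and 49.9%) and were empty too. The part of repeated sequence in the empty windows was not tested. Without the family, 58 members remained, of which 65.5% had ZNF143, 93.1% had SP1, 81.0% had NRF1 and 93.1% had YY1. No similar genes were left out of the shares of all genes, so these values are not on the same basis as those.

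**Figure D2:**
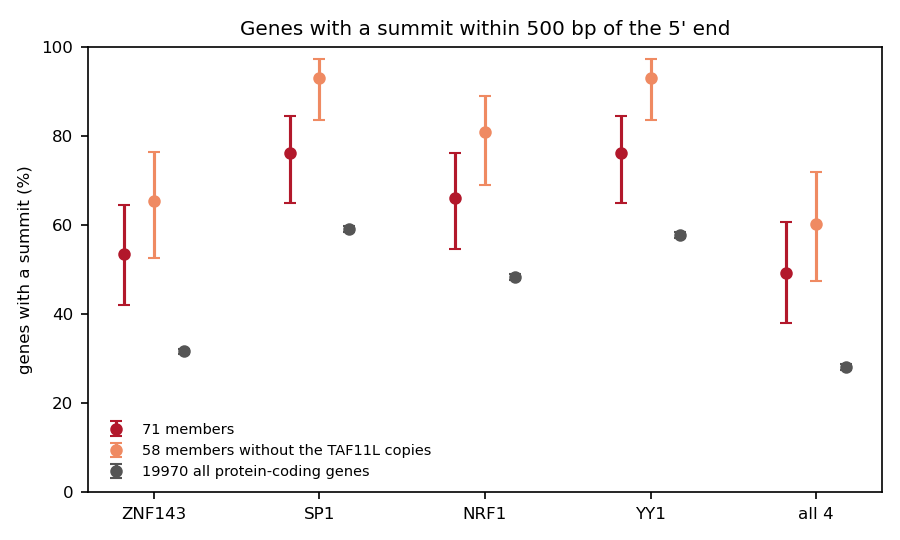
Percentage of genes with a summit of each factor, or of all 4, within 500 bp of the 5′ end, for the 71 members, the 58 members without the TAF11L family and all 19970 genes; error bars are Wilson 95% intervals. The members stand above all genes for every factor, at 53.5% against 31.7% for ZNF143.

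All 38 members with a ZNF143 summit also had SP1 and YY1, as did 96.0% of all genes with a ZNF143 summit. Of the 38, all but GTF2E1, GTF2H4 and BDP1 had NRF1. Of the 71 members, 3 had 1 factor (4.23%, beside 5.01% of all genes), 4 had 2 (5.63%, beside 9.48%) and 14 had 3 (19.7%, beside 20.1%). Of the 18 members with another factor and no ZNF143, 11 had the other 3 factors, 3 had SP1 and YY1 (TAF15, TAF9B and GTF2I), 1 had NRF1 and YY1 (GTF2IRD2), 2 had SP1 (GTF2H2 and GTF2H2C) and 1 had YY1 (TAF7L). At the edge of the window, the outermost highest summits inside were a ZNF143 summit 444 bp from GTF3C4, SP1 and NRF1 summits 488 and 480 bp from GTF2IRD2B, and a YY1 summit 485 bp from TAF9. Just outside lay a ZNF143 summit 577 bp from GTF2F1, an SP1 summit 553 bp from GTF2IRD2 and an NRF1 summit 589 bp from GTF2E1.

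The ZNF143 scores of the members spread widely. Above 200 there were 12 members (31.6%, beside 30.1% of all genes with a ZNF143 summit) and under 100 there were 26. None lay between 70 and 200, bounds set after the values were seen, beside 5.46% of all genes and an upper 95% limit of 9.18% for the members. The median was 19.9, beside 23.6 over all genes with a ZNF143 summit. Summits within the top 10% of the ZNF143 list were found at 8 members (21.1% of 38, 11.1 to 36.3), a share near the 20.4% of all genes. A YY1 summit in the top 10% of its list was found at 38 of 54 members (70.4%, 57.2 to 80.9), beside 49.3% over all genes. For SP1 it was 50.0% beside 45.1%, and for NRF1 36.2% beside 31.2%.

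**Figure D3:**
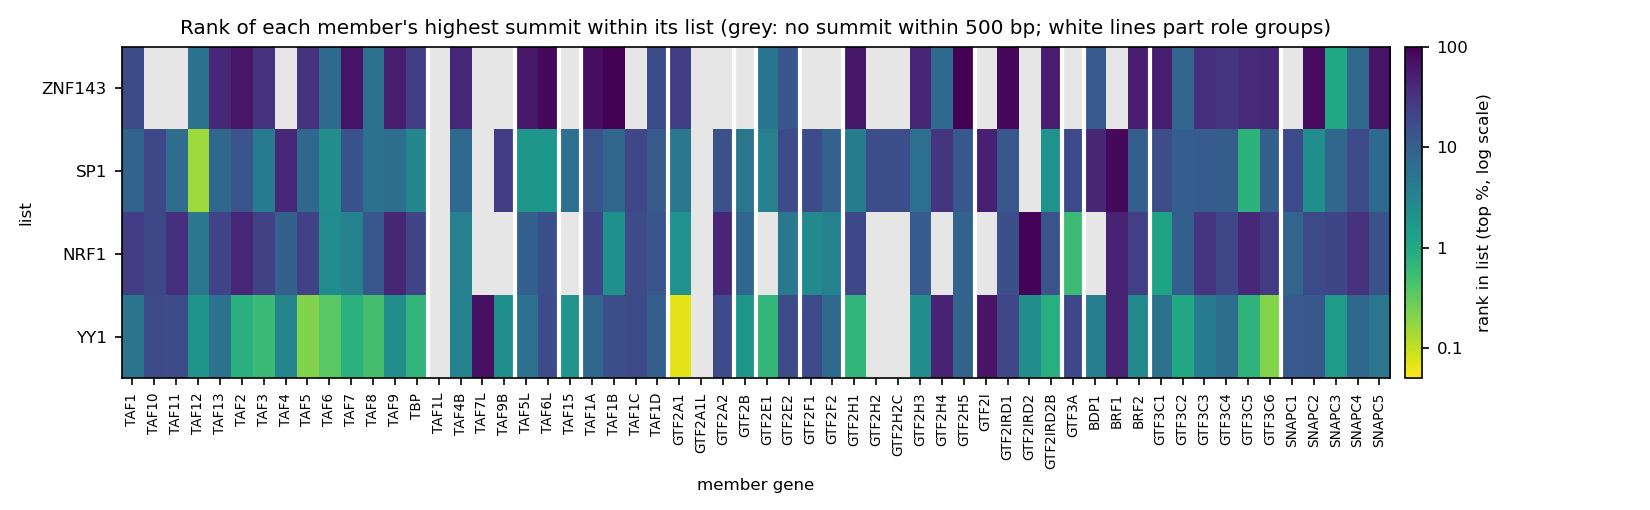
Rank of the highest summit of each factor at each member, as its top percentage within its list, on a logarithmic colour scale from dark (weak) to yellow (strong); columns are the 58 members outside the TAF11L family, grouped by role, and grey cells have no summit within 500 bp. Within the YY1 row GTF2A1 is strongest, at the top 0.0685%, and within the ZNF143 row SNAPC3, at the top 1.05%. Colours are comparable within a row only, since the lists differ in length.

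SNAPc binds the proximal sequence element of small nuclear RNA genes and has 5 subunits. SP1, NRF1 and YY1 were found at all 5 genes, beside 59.1%, 48.3% and 57.8% of all genes. ZNF143 was found at 4 of the 5, beside 31.7%. The 2 strongest were those of SNAPC3, at 15974 (top 1.05% of the list) and 40 bp downstream of the 5′ end, and SNAPC4, the subunit with Myb repeats that contact DNA, at 3539 (top 7.27%) and 74 bp upstream. SNAPC3 had the highest ZNF143 score of all members. SNAPC5 had a score of 7.52, 57 bp upstream, and SNAPC2 one of 4.97, 3 bp downstream, both among the weaker part of the list. SNAPC1, a subunit that holds the complex together, had its nearest ZNF143 summit 66414 bp away, but an NRF1 summit of 712 and an SP1 summit of 98.2. For SP1 the order was another: SNAPC2 was highest at 889 and SNAPC1 lowest.

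SNAPC4 carried its strong summit without the flank, and the closest form of the core near it had 2 mismatches. A closest form with 2 mismatches was common, at 19 of the 38 members with a ZNF143 summit, among them GTF2H5 with a score of 2.10. The SNAPC4 sequence (chr9:136400232-136400261, minus strand, hg38), with the closest form in capitals, is set here beside that of SNAPC3 given earlier.
SNAPC4: cagcggccgtCCCGGCGTGCcccgcgcctc

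TFIIIC recognises the internal promoter of transfer RNA genes and recruits TFIIIB. All 6 TFIIIC genes had all 4 factors, beside 28.1% of all genes. The ZNF143 score was high at GTF3C2, 2607 at 37 bp downstream, and low at the other 5, between 12.2 at GTF3C1, the large DNA-binding subunit, and 35.6 at GTF3C4. GTF3C3 had 26.5, GTF3C5 20.8 and GTF3C6 19.1. NRF1 reached 9443 at GTF3C1, within the top 1.20% of its list, while it was 7.91 at GTF3C5. YY1 reached 5629 at GTF3C6 and 2250 at GTF3C5, and SP1 was highest at GTF3C5, at 1840.

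TFIIIB places the polymerase at the start site and combines TBP with BDP1 and with either BRF1, used at transfer RNA genes, or BRF2, used at the U6 type of gene. BDP1 had a ZNF143 summit of 957, 25 bp upstream, with a weak SP1 summit of 18.4, a YY1 summit of 391 and no NRF1. BRF2 had a ZNF143 score of 10.5 and a YY1 score of 614. BRF1 had no ZNF143 summit at its outermost 5′ end and weak ones of SP1 (3.93), NRF1 (6.68) and YY1 (16.2). At its canonical 5′ end, 14588 bp away, these were 219, 34.4 and 137. GTF3A encodes TFIIIA, which recognises the ribosomal RNA gene read by RNA polymerase III. It lacked ZNF143 and had the highest NRF1 score of all members, 12498, within the top 0.541% of that list.

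TFIID is represented by TBP and 13 TAFs. SP1, NRF1 and YY1 were found at all 14 genes, beside 59.1%, 48.3% and 57.8% of all genes, and ZNF143 at 11, beside 31.7%. TAF12, TAF8 and TAF6, subunits with the histone fold, had ZNF143 scores of 4617, 4497 and 3729, and TAF1, the largest subunit, had 252. TBP, which is shared by the machinery of all 3 polymerases, had 61.3 at 19 bp downstream and a second summit of 12.5 at 391 bp upstream. The other 6 were lower: TAF3 at 33.5, TAF5 at 33.4, TAF13 at 18.5, TAF9 at 12.2, TAF2 at 8.14 and TAF7 at 7.64. The lowest of the 11 was therefore TAF7, a subunit that restrains TAF1, and its NRF1 score was 4885. TAF4, TAF10 and TAF11 had no ZNF143 summit in their windows.

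Partners that pair through the histone fold differed. ZNF143 was found at both TAF6 and TAF9, but at TAF8 and not its partner TAF10, at TAF12 and not TAF4, and at TAF13 and not TAF11. In YY1 the TFIID genes held some of the strongest summits of the members. TAF5, the subunit with WD40 repeats, had 5597 and TAF6 had 4162, followed by TAF8 with 3246, TAF3 with 2786, TBP with 2369, TAF7 with 2133 and TAF2 with 2084. TAF12 had the highest SP1 score of all members at the outermost 5′ end, 3972, within the top 0.151% of the SP1 list, but 319.7 at its canonical 5′ end.

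The list holds 4 paralogues of TFIID subunits outside the TAF11L family, among them TAF1L, which had no factor. TAF4B, a relative of TAF4, had all 4 factors, with a ZNF143 score of 18.4 and an NRF1 score of 4625. TAF9B had SP1 and YY1, and TAF7L had a single weak YY1 summit of 6.91. TAF5L and TAF6L belong to the coactivator SAGA. Both had all 4 factors, with ZNF143 scores of 9.71 and 4.35 and SP1 scores of 1057 and 1032. TAF15, an RNA-binding protein of the FET family, had SP1 at 390.4 and YY1 at 898.

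SL1 brings RNA polymerase I to the ribosomal RNA genes and is built of TBP and TAF1A to TAF1D. ZNF143 was found at 3 of the 4 genes, beside 31.7% of all genes. At the outermost 5′ ends the score was 217 at TAF1D, 6.26 at TAF1A and 2.11 at TAF1B, the last close to the lowest value of the list. TAF1C had none. TAF1B instead had an NRF1 score of 6955. The TAF1D summit of 217 also lay in the untranslated region of MED17. The canonical 5′ end of TAF1D lay 42896 bp from the outermost one and had a ZNF143 score of 10.8.

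Among the remaining factors of RNA polymerase II, ZNF143 was uneven between subunits of 1 factor. TFIIA, which stabilises TBP on DNA, had ZNF143 at GTF2A1 (67.6) and not at GTF2A2, its small subunit. GTF2A1 had the highest YY1 score of all members, 10608, within the top 0.0685% of that list. TFIIB, encoded by GTF2B, and both subunits of TFIIF, GTF2F1 and GTF2F2, had the 3 other factors and no ZNF143 within 500 bp. TFIIE, which recruits TFIIH, had ZNF143 at both genes, at 5255 for GTF2E1, 299 bp upstream, and 665 for GTF2E2, 9 bp downstream. NRF1 was absent within 500 bp at GTF2E1 and reached 3183 at GTF2E2.

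TFIIH opens the DNA and also serves DNA repair. ZNF143 was found at 4 of its 6 GTF2H genes, beside 31.7% of all genes. GTF2H4 had 3630.2 with weak SP1 (35.8) and YY1 (16.8) and its nearest NRF1 summit 6006 bp from the 5′ end. GTF2H3, GTF2H1 and GTF2H5 had ZNF143 scores of 16.8, 9.07 and 2.10, the last being the lowest of all members. GTF2H2 and GTF2H2C had SP1 alone, at 115 and 117. They are near-copies whose windows were repeated to 100% and 81.6%, and they lie in a stretch that the numbering of the YY1 list skips (the part of either in the missing summits was not tested). In the TFII-I family, regulators with helix-loop-helix-like repeats, ZNF143 was found at GTF2IRD2B (10.8) and GTF2IRD1 (4.35). It was not found within 500 bp of the outermost 5′ end of GTF2I or GTF2IRD2. Near the canonical 5′ end of GTF2I, however, the ZNF143 score was 12651. GTF2IRD2 and GTF2IRD2B are near-copies too, with windows repeated to 90.2% and 86.9%.

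**Figure D4:**
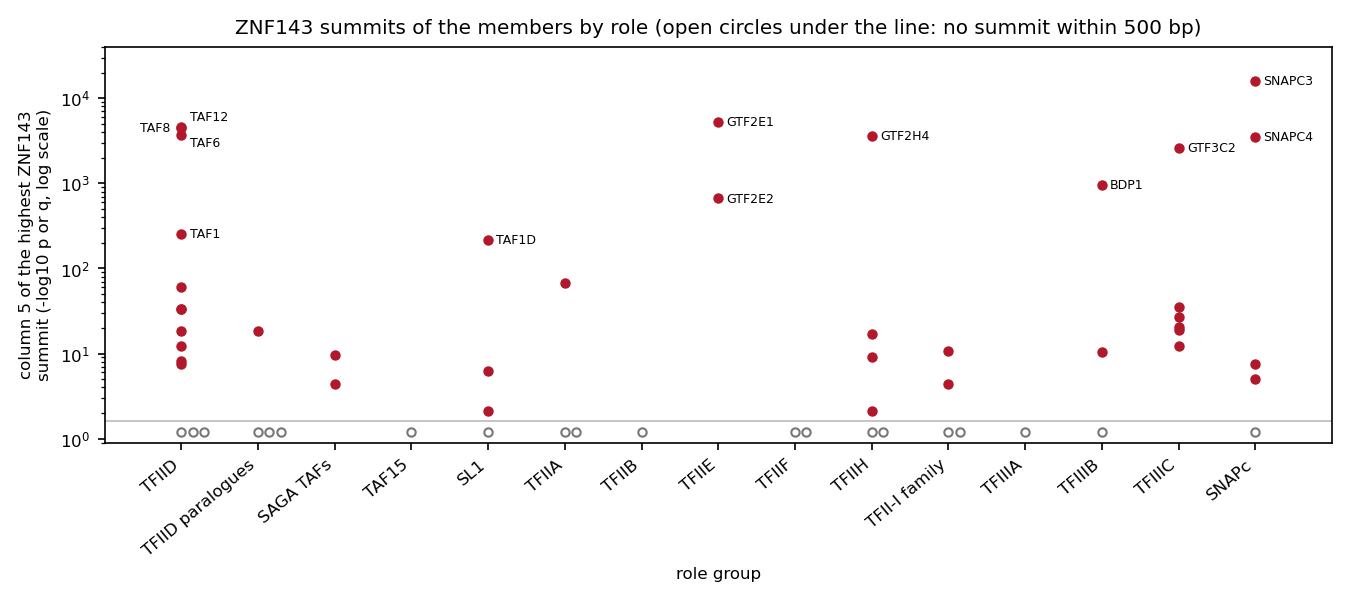
Score (column 5 of its list) of the highest ZNF143 summit (log axis) within 500 bp of the 5′ end of each member, by role group; each point is 1 member, members above 200 are named, and members with no summit are open circles under the line, and the TAF11L family, which had none, is left out. The 12 named members are spread over 7 groups.

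At 7 members the 5′ end of the Ensembl canonical transcript lay more than 500 bp from the outermost 5′ end of the gene, and 3 members with no ZNF143 summit at the outermost end had one at the canonical end. GTF2I, the founding gene of the TFII-I family, had a ZNF143 score of 12651 at 129 bp upstream of its canonical 5′ end, 7487 bp from the outermost one, with NRF1 at 10152 and YY1 at 1453. GTF2F1 had 751 at 240 bp upstream of its canonical 5′ end, and BRF1 had 3.35 at 204 bp downstream. TAF12 kept ZNF143 at its canonical 5′ end with a score of 73.9 in place of 4617, and TAF1D with 10.8 in place of 217. TAF11 had no ZNF143 summit at either end, and TAF7L had none of the 4 factors at its canonical end.

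The highest ZNF143 summit lay at a median of 9 bp downstream of the outermost 5′ end (quartiles -69.75 and 47.5), beside -19 bp over all genes, where a minus sign means upstream. Measured from the canonical 5′ end the members' median turned to -47 bp and that of all genes was -59 bp. Upstream summits were 16 of 38 (42.1%, 27.9 to 57.8), beside 55.8% over all genes. The YY1 median was 106.5 bp downstream (quartiles 5.5 and 193.75), beside 60 bp over all genes, and 13 of 54 YY1 summits lay upstream (24.1%, beside 38.2%). Measured from the canonical 5′ end the YY1 median turned to -8 bp, beside 30 bp over all genes, so the direction depends on which end is used. The SP1 median was 0 bp and the NRF1 median -14 bp, and from the canonical 5′ end these were -65.5 and -68 bp, beside -73 and -66 bp over all genes. Upstream of the outermost 5′ end lay 50.0% of the SP1 summits (63.2% over all genes) and 51.1% of the NRF1 summits (59.7%).

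**Figure D5:**
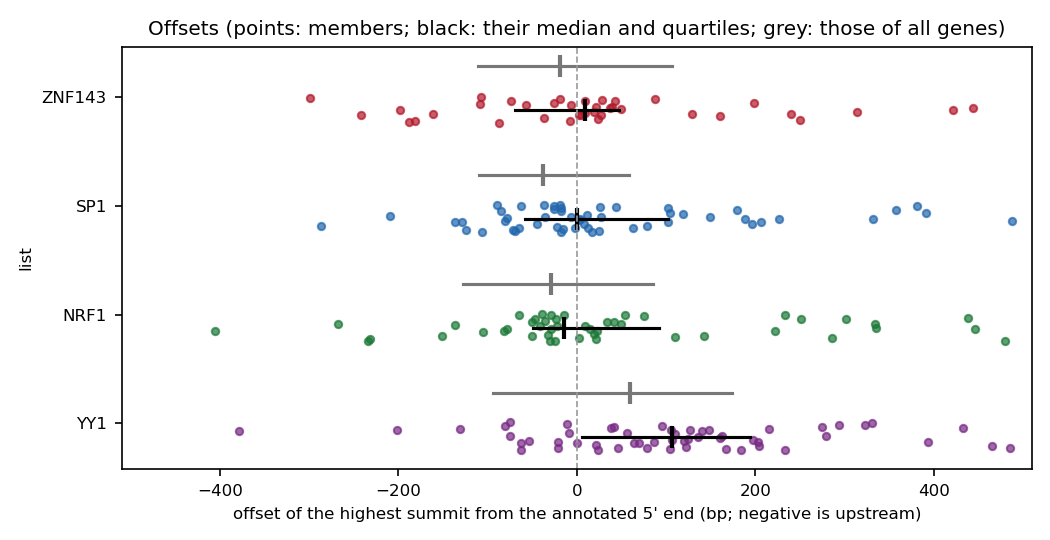
Distance in bp of the highest summit of each factor from the outermost 5′ end (negative is upstream) for each member with a summit; points are members, black bars their median and quartiles, and grey bars those of all genes. YY1 summits centre at 106.5 bp downstream and ZNF143 summits at 9 bp.

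Within 100 bp of the highest ZNF143 summit of the 38 members, a YY1 summit lay at 31 (81.6%, 66.6 to 90.8; 66.0% over all genes), an SP1 summit at 26 (68.4%; 67.5%) and an NRF1 summit at 20 (52.6%; 46.8%). All 3 were that close at 16 members (42.1%, 27.9 to 57.8), beside 27.2% over all genes. TAF12 was the only one of the 38 members with none of the 3 within 100 bp (2.63%), beside 10.9% of all genes. Its strong summit had neither the core nor the flank at 0 mismatches.

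A summit between 2 genes cannot be given to 1 of them. Another protein-coding 5′ end lay within 1000 bp at 13 members (18.3%), beside 17.4% of all genes. At all 13 at least 1 such end was on the opposite strand, beside 13.4% of all genes. A ZNF143 summit was found at 12 of the 13 (92.3%, 66.7 to 98.6). The share was 60.3% of all genes with a neighbouring 5′ end and 65.0% of those with one on the opposite strand. Among the 12 members were GTF2E1 with RABL3 (356 bp), TAF6 with CNPY4 (207 bp), TAF8 with CCND3 (156 bp), TAF1D with MED17 (164 bp) and TBP with PSMB1 (995 bp). The summit was nearer to the neighbour's 5′ end at GTF2H3 (EIF2B1), GTF3C4 (DDX31) and TAF9 (RAD17). TAF9 also shares its outermost 5′ end with AK6 on the same strand, so its summits are equally those of AK6.

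Of 16 further genes of the same pathways, listed by role and not by value, 7 had ZNF143, 13 SP1, 13 NRF1 and 14 YY1. In the same order, 31.7%, 59.1%, 48.3% and 57.8% of all 19970 genes had these factors. No interval is given for so few genes, and a difference from all genes was not tested. The TFIIH subunits ERCC2, ERCC3 and CCNH had ZNF143 scores of 3.76, 15.5 and 17.3, while CDK7 and MNAT1, their partners, had none. DR1 and DRAP1 form a repressor of TBP. DR1 had 2136 at 4 bp downstream and DRAP1 54.5. POU2F1, the octamer-binding activator of small nuclear RNA genes, had 10.2, with NRF1 at 24534, above that of any member. ELL had 18.1. BTAF1, ICE2, RRN3 and UBTF had the other 3 factors without ZNF143.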

How the data were processed

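ChIP-seq summits of ZNF143 (HA), SP1, NRF1 and YY1 were taken as deposited. From its values and layout, column 5 of the authors' lists was read as −log10 of either a p-value or a q-value; the sources used here do not say which. The submitters' processing notes name cutadapt, Bowtie2, SAMtools 1.16.1, MACS3, bedtools and hg38, with no role or order. The NRF1 and YY1 lists were assigned by the antibody in the file name. Whether replicates were pooled before calling is not given in the sources used here.

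Summits were assigned to the 5′ ends of GENCODE 44 protein-coding genes, and the highest-scoring summit within 500 bp was kept. Letters were read from hg38, not from a promoter table. Repeated sequence was counted as 31-base words of each window found again in hg38. Python 3.11.15, pandas 2.3.3, scipy 1.17.1 and pysam 0.24.0 were used, and the counting was tested on simulated data. No significance test was run, since the lists hold no value per sample and genes are not replicates. Wilson intervals at 95% cover counting error only.

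The members and lists were chosen with earlier results of these data known. By rule, all SNAPc and RNA polymerase III members were named, the highest and lowest ZNF143 value of each other group, members with no factor, and members with ZNF143 lacking another factor. Other named members, the NRF1 and YY1 sequences and those of TAF11, GTF3C2 and SNAPC4 were chosen after their values were seen. Alternatives changed the window, the 5′ end, the score threshold, the list length, repeated members, distances and mismatches. Other contigs, chromosome Y and the mock samples were not analysed here.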

Additional observations from a re-analysis of the deposited data

How the results depend on the processing

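No paired analysis was possible because the lists carry no value per sample or replicate, and for the same reason no replicate could be left out. Every share of members with a factor, or with all 4, stayed above that of all genes under every alternative run. With any transcript's 5′ end the share of all genes lay inside the members' interval for SP1, NRF1 and YY1. For ZNF143 the share was 32.4% with the upper 50% of each list and 38.0% with scores of at least 10. For all 4 factors it was 28.2% and 31%, and 33.8% with lists of equal length, where SP1 gave 47.9% and YY1 56.3%. Without members whose window was mostly repeated, SP1 gave 87.9%, NRF1 77.6% and YY1 89.7%.

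Measured from the canonical 5′ end, median offsets became -47 bp for ZNF143 and -8 bp for YY1, both reversed, -65.5 bp for SP1 and -68 bp for NRF1. Within 1000 bp the NRF1 median turned to 12 bp downstream. Within 50 and 250 bp of the ZNF143 summit, SP1 was found at 47.4% and 92.1% of members, NRF1 at 36.8% and 84.2% and YY1 at 57.9% and 100%. The ZNF143 core with 1 mismatch gave 13.2% (20.3% over all genes), and GGGCGG within 25 and 100 bp gave 7.41% and 44.4% (25.7% and 63.8%). The cause was not tested, apart from the construction of each alternative. The depth behind the lists is unknown, and longer or deeper lists hold more weak summits, so shares of different factors cannot be ranked.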

Other observations

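Of the further genes of the same pathways, 3 had few summits in their windows. ICE1, a subunit of the little elongation complex of small nuclear RNA genes, and TBPL2, a TBP relative known from oocytes, had none of the 4 factors within 500 bp of the outermost 5′ end. TBPL1, a TBP relative known from testis, had a YY1 summit alone, with a score of 150.4. Other summits lay further downstream of the outermost 5′ ends. At ICE1 the nearest were SP1 at 886 bp, YY1 at 930, NRF1 at 1162 and ZNF143 at 1601. At TBPL1 they were NRF1 at 680 bp, SP1 at 845 and ZNF143 at 962. At TBPL2 YY1 lay at 1920 bp and SP1 at 1996, while NRF1 and ZNF143 were 44442 and 44867 bp away.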
